A study of Mus musculus with 9 samples.

Results

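Mammary epithelial cells in which both Trp53 and Brca1 were targeted for deletion were compared with wild-type cells. The 6 RNA-seq libraries were 3 labelled p53/Brca1-null and 3 labelled WT. Values were FPKM, fragments scaled to transcript length and to library size. Of 23951 genes, 3428 were well measured, which means 5 FPKM or more in all 3 libraries of at least 1 of the 2 genotypes. Of these, 1506 were well measured on both sides, 249 in WT alone and 1673 in p53/Brca1-null alone. Just inside this limit lay Wdr26, with 5.0006 FPKM in the lowest library of its better side, and just outside it lay Sh3gl1, with 4.9995.

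Female mice of a mixed genetic background received the adenovirus Ad-K8-Cre through the milk ducts, and YFP-positive cells were sorted 1 month later. WT cells came from Rosa26-Stop-YFP (R26Y) mice, and p53/Brca1-null cells from R26Y mice that also had both alleles of Trp53 and of Brca1 floxed (Trp53L/L;Brca1L/L;R26Y). The series also has 3 libraries labelled p53-null (Trp53L/L;R26Y), which entered the fit and are given beside some results. Both the virus and the reporter were thus shared by all groups, and the ages of the mice are not given in the labels. The keratin 8 promoter aims Cre at luminal cells, and YFP reports Cre activity at the reporter, not the loss of either floxed gene. Whether the replicates are different animals is not stated in the labels. The p-values below therefore measure only how much these libraries spread, which may be technical.

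p53, the product of Trp53, is a transcription factor that halts the cell cycle or starts cell death after DNA damage. BRCA1 is needed for homologous recombination, the repair of DNA breaks from an intact copy. Luminal cells line the mammary ducts. They comprise hormone-sensing cells, which carry the receptors for estrogen, progesterone and prolactin, and progenitors that lean towards milk-producing alveolar cells. Macrophages sit within and around this epithelium, so their transcripts can come with a mammary cell suspension.

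Before any comparison, 1 pair of libraries stood out. Over the 2199 genes at 20 FPKM or more in WT replicate 2, 670 (30.5%) lay within 20% of 1 common ratio in WT replicate 1, namely 8.25% of the level in WT replicate 2. Among the other ordered pairs of the 9 libraries, such a commonest low ratio held from 3.61% to 10.9% of genes. Many low values in WT replicate 1 thus follow those of WT replicate 2, and these 2 libraries are not fully separate measurements. Among genes whose values are given below, WT replicate 1 lay within 20% of that ratio for Ccl7, Cd14, Cmtm3, Csn1s1, Csn1s2a, Dmkn, Fosl1, Gclm, Gdf15, Hbegf, Hes1, Lgmn, Mdm2, Mgl2, Muc1, Pgr, Pmaip1, Pno1, Tpi1, Wfdc18 and Wnt5b. Subtracting that share left 1510 of the 1755 genes well measured in WT, and 1294 of the 1506 genes well measured on both sides. Leaving WT replicate 1 out, 3990 genes were well measured, 2157 of them on both sides.

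**Figure D1:**
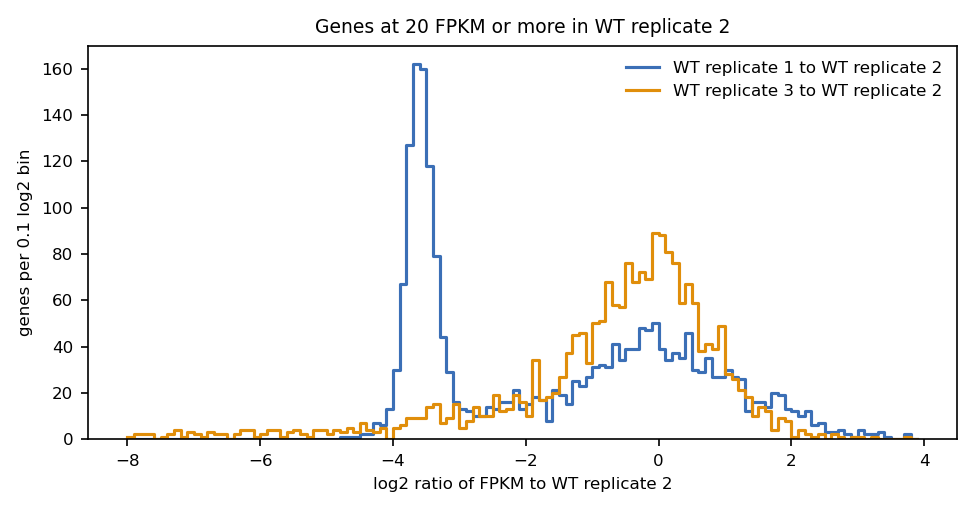
Number of genes (vertical axis) by the log2 ratio of their FPKM to that in WT replicate 2 (horizontal axis, bins of 0.1), for genes at 20 FPKM or more in WT replicate 2. WT replicate 3 (orange) forms 1 broad peak near equal levels, while WT replicate 1 (blue) has a second, narrow peak, around the ratio of 8.25% near which 670 of 2199 genes lay.

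Detection also differed between libraries: 4839 to 7320 genes reached 1 FPKM in the WT libraries and 7332 to 8213 in the p53/Brca1-null libraries. Relative depths read from the steps between low values lay between 0.758 and 1.07, lowest in WT replicate 1. Neither floxed gene checked the labels. Trp53 stood at 2.77, 25.5 and 1.35 FPKM across WT against 23.7, 26.5 and 1.88 across p53/Brca1-null, and Brca1 was listed at 0 in all 6 libraries. The luminal keratin genes Krt8 and Krt18 stood at 1208 FPKM or more in every one of the 6 libraries. An abundant gene can be listed at 0 in 1 library: Ftl1, the ferritin light chain, had 11884, 22017 and 0 FPKM in p53/Brca1-null, which may be a failed estimate.

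Differences were tested with limma on log2(FPKM + 1), and a gene was called at an adjusted p under 0.05 over 9503 genes tested. By this rule 24 genes were called (0.253%). On this scale a fold of low genes is understated. In p53/Brca1-null 21 genes were called higher (0.221% of the genes tested) and 3 lower (0.0316%). An unadjusted p under 0.05 was reached by 964 genes on the higher side (10.1%) and 199 on the lower side (2.09%). The groups did not overlap for 1205 higher genes (12.7%) and 364 lower ones (3.83%). Counts of list members below are to be read against these shares. All genes leaned upward, with a median log2 difference of 0.41, which was -0.01 with quantile normalization and 0.05 when the count of detected genes entered as covariate. With that covariate 4 genes were called, 3 higher and 1 lower, and quantile normalization gave 54, of which 45 were higher and 9 lower. Medians of most gene lists below are therefore also given relative to the median of all genes tested.

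The count of 24 rested on single libraries. Leaving out WT replicate 3 gave 74 calls. Without p53-null replicate 2 or 3 there were 8 or 12, and removing p53/Brca1-null replicate 1, 2 or 3 left 6, 3 or 7. Subtracting the shared part from WT replicate 1, an alternative chosen after seeing the data, left 6 calls, all among the 24: Retnla, Mrpl42, Cd209g, Cd209f, H2-Aa and Sprr1a. In the other 18 genes adjusted p then lay above 0.05.

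A gene well measured on 1 side only was chosen in part by its difference. Of the 1673 such genes of p53/Brca1-null 1590 had a positive log2 difference, and of the 249 of WT 247 had a negative one. Among these genes 18 were called higher and 2 lower. The 1506 genes well measured on both sides were not chosen in this way. There 3 genes were called higher (Retnla, H2-Aa and Pf4, 0.199%) and 1 lower (Gpx3, 0.0664%). With these included, 79 and 41 had an unadjusted p under 0.05 on the higher and the lower side (5.25% and 2.72%). The groups did not overlap for 135 higher and 107 lower genes (8.96% and 7.1%). The median log2 difference in this class was 0.05, against 0.41 over all genes tested.

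**Figure D2:**
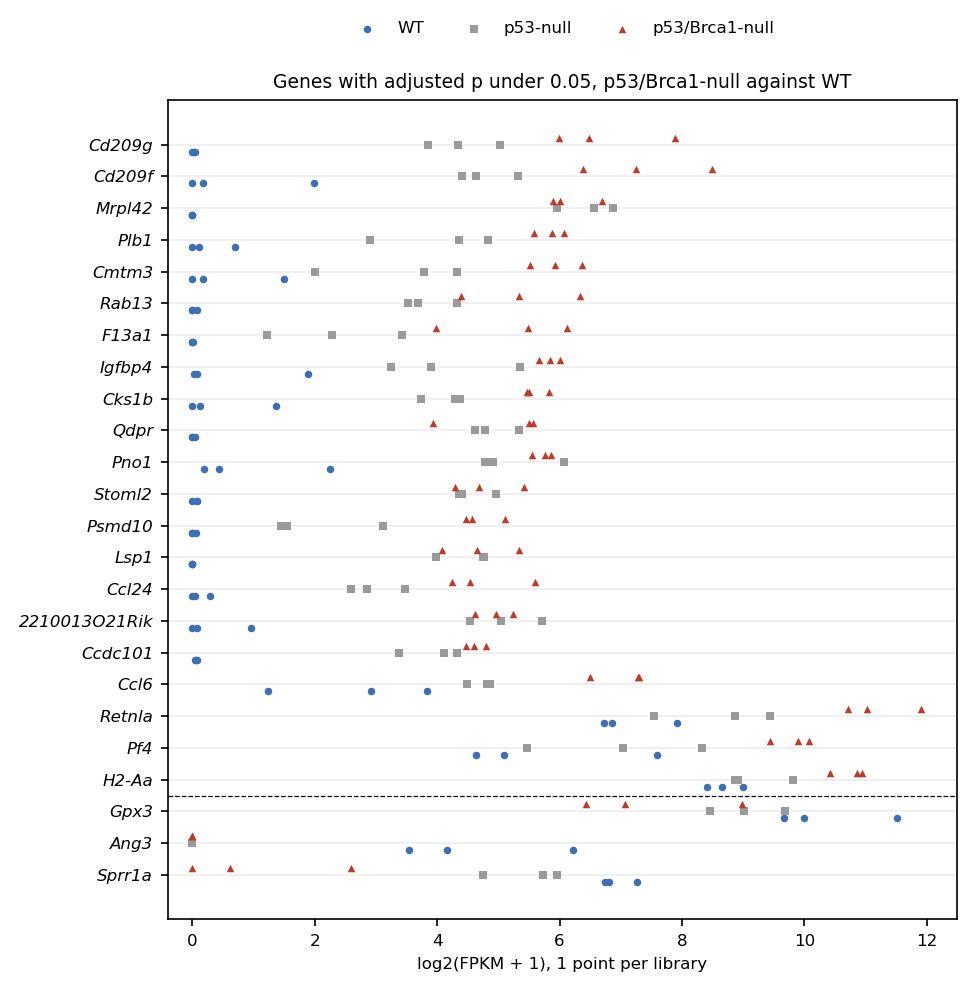
Level of each of the 24 called genes in each library, as log2(FPKM + 1), with WT as blue circles, p53-null as grey squares and p53/Brca1-null as red triangles. Genes above the dashed line were higher in p53/Brca1-null and those below it lower. WT and p53/Brca1-null points do not overlap for any of the 24, and most of the higher genes lie near 0 in WT.

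Of the gene lists, all chosen with earlier results of these data known, that of resident, alternatively activated macrophages held the most calls. Retnla encodes a small secreted protein that such macrophages make in response to interleukin 4. It stood at 240.1, 115 and 105 FPKM on the WT side against 1673, 3815 and 2088 on the p53/Brca1-null side, so that every p53/Brca1-null library lay above every WT library. The mean was 16.5 times as high, a log2 difference of 4.05 ± 0.47 (SE, limma adjusted p = 0.0016). Pf4, a platelet and macrophage chemokine, stood at 192, 23.8 and 33.1 against 689.8, 1082 and 952 FPKM, again without overlap (limma adjusted p = 0.037). Its call was lost without WT replicate 2 (limma adjusted p = 0.10002) and without p53/Brca1-null replicate 1, 2 or 3 (0.119, 0.217 and 0.128). The other 5 calls of the list, Cd209f, Cd209g, Ccl6, Ccl24 and F13a1, were genes well measured in p53/Brca1-null alone. Ccl6, a chemokine, stood at 1.35, 13.2 and 6.56 FPKM within WT against 88.9, 157 and 154 within p53/Brca1-null. F13a1, a transglutaminase chain of clotting that macrophages also make, stood at 0, 0 and 0.0101 against 43.9, 68.3 and 14.8. Without p53/Brca1-null replicate 2, the calls of Cd209g and Cd209f were lost too (limma adjusted p = 0.0779 and 0.0917), as were those of Ccl6, Ccl24 and F13a1 (0.217 each). These 3 also lost their call without p53/Brca1-null replicate 1 or 3. Ccl6 was called in 10 of 19 other settings, Ccl24 in 7 and F13a1 in 6. Retnla stayed called in each leave-one-out fit (highest limma adjusted p = 0.0164).

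Of the 20 genes of this list 18 were tested and 7 called higher, of which 1, Retnla, stayed called without p53/Brca1-null replicate 2. At an unadjusted p under 0.05, 14 passed on the higher side, where 10.1% of all genes did, and 0 on the lower. The median log2 difference was 4.04, or 3.63 above that of all genes, and 2.68 to 3.93 above it over the other settings. Of the 18, 14 were well measured in p53/Brca1-null alone, and the list was chosen with earlier results known. These counts and this median are thus a description. Several uncalled members also had their groups apart. Cbr2, a carbonyl reductase, stood at 2.38, 24 and 34.7 FPKM against 168, 400.5 and 116. Mgl2 and Clec10a, galactose-binding lectins of macrophages and dendritic cells, stood at 0.952, 10.2 and 1.05 against 41, 83.5 and 80.4 and at 0.0366, 1.55 and 30.7 against 41.6, 77.5 and 119. Clec10a thus had 1 WT library, replicate 3, at an intermediate level. Mrc1, the mannose receptor, and Timd4 and Fcna overlapped between groups, each with 1 high WT library. The scavenger receptor gene Cd163 was listed at 0 throughout WT and reached 0.905, 7.59 and 2.73 FPKM in p53/Brca1-null, under the level needed for a test. Lyve1 reached no more than 0.195 FPKM in any of the 6. Summed over the list, levels ran from 255 to 476 FPKM in WT and from 3044 to 6666 in p53/Brca1-null. In sorted bulk cells fewer cells of a type and less RNA per cell cannot be told apart, and the part of myeloid cells in the results given here was not tested.

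The upstream sequences of Retnla and of the 2 Cd209 genes are shown because these genes head the calls. They are the 250 bases before each start site, from RefSeq on GRCm38.p6, a different build from that of the files, and 19 of the 24 called genes had an entry. In each, capitals mark the matches to 1 motif, searched on both strands, and matches to other motifs are in lower case.

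Retnla: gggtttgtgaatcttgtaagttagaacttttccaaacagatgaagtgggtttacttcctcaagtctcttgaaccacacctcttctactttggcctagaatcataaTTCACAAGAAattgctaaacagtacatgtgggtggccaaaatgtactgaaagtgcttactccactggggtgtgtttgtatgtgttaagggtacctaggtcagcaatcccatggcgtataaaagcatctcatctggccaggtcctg

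Cd209f: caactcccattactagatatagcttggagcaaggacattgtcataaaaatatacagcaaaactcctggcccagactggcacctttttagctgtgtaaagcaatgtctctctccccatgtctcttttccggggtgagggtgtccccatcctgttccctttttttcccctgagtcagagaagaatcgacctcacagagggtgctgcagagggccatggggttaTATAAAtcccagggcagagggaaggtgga

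Cd209g: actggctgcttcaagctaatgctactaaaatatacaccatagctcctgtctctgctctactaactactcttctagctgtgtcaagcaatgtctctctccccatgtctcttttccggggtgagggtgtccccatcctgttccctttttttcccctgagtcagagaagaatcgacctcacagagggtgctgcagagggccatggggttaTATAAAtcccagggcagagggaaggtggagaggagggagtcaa

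The Retnla stretch is chr16:48842359-48842608 on the plus strand, and its capitals match the motif of STAT6, the factor activated by interleukin 4, which is TTC, 4 further bases and GAA. The match begins 145 bases before the start site. Of all 32851 promoters in the table, each with 50 bases after the start site included, 6.95% hold such a match, as do 2 of the 17 listed macrophage genes with an entry (Retnla and Cbr2). Cd209f lies at chr8:4105765-4106014 on the minus strand and Cd209g at chr8:4134486-4134735 on the plus strand, and capitals mark the TATA box letters TATAAA, 29 and 43 bases before the annotated starts (13.6% of promoters). Set against each other with a shift of 14 bases and no gaps, the 2 stretches were identical at 189 of 236 bases (80.1%). Cd209f and Cd209g are neighbouring copies of 1 lectin family, and how the authors' counting divided reads between near-identical genes is not given in the sources used here, so their 2 calls may not be separate.

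Among general myeloid genes, which macrophages share with monocytes and neutrophils, no gene was called and the difference was smaller. The complement subunit genes C1qa and C1qb, made by tissue macrophages, stood at 89.3, 49.2 and 194 against 294, 318 and 221 FPKM and at 385, 179.6 and 315 against 597, 735 and 907. Neither overlapped between the groups (limma adjusted p = 0.289 and 0.19997). Lysozyme, Lyz2, overlapped widely, at 2119, 592 and 3223 against 1445, 3039.7 and 3313 FPKM. Ctss, a lysosomal protease of antigen-presenting cells, stood at 786, 79.3 and 281 against 142, 152 and 244, with its highest library in WT. Of 19 tested genes 9 had an unadjusted p under 0.05, all with higher values, and the median log2 difference was 1.17, or 0.76 above all genes. Relative to all genes it was -0.07 without WT replicate 2, so the direction turned there, and lay between -0.07 and 1.28 over all other settings. Their summed level ran from 1608 to 5721 FPKM in WT and from 4399.7 to 7646 in p53/Brca1-null, and the ranges overlapped. WT libraries thus also held myeloid transcripts.

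**Figure D3:**
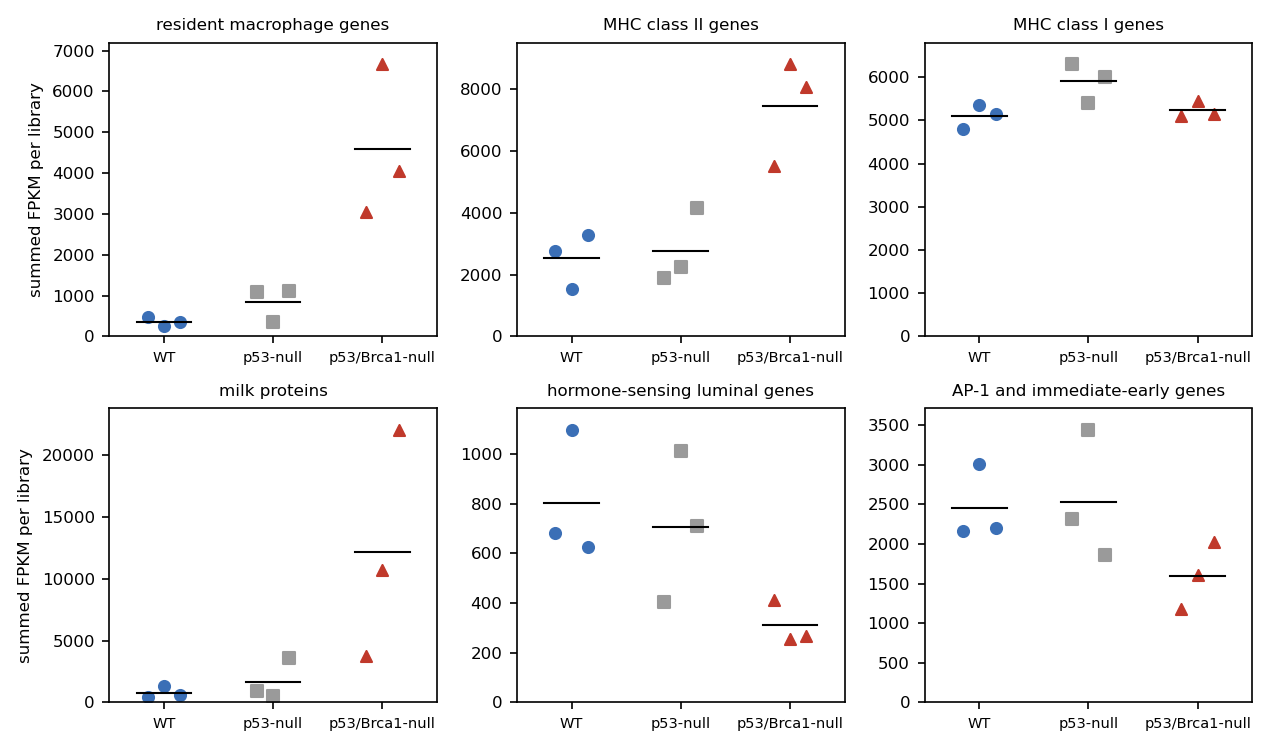
Summed FPKM of 6 gene lists in each library, 1 point per library and a black line at the mean of the 3, with every axis starting at 0. Resident macrophage, MHC class II and milk protein genes lie higher in all 3 p53/Brca1-null libraries than in all 3 WT libraries, MHC class I genes lie between 4793 and 5452 FPKM in these 6 libraries, and hormone-sensing and immediate-early genes lie lower in p53/Brca1-null.

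Antigen presentation split by class. MHC class II molecules carry peptides to helper T cells and are made mainly by antigen-presenting cells. H2-Aa, an alpha chain, stood at 403, 339.9 and 511 FPKM across WT against 1361, 1963 and 1863 across p53/Brca1-null, a mean 4.14 times as high (log2 difference 2.05 ± 0.32, limma adjusted p = 0.0105). It lost its call without WT replicate 2 (limma adjusted p = 0.0539) and without p53/Brca1-null replicates 2 (0.123) and 3 (0.0765). Its partner chain H2-Ab1 stood at 961, 287 and 934 against 1325, 2153 and 2506, and the invariant chain Cd74, which guards the peptide groove, at 1259, 859 and 1758 against 2679.98, 4427 and 3543. Both kept the groups apart and missed the adjusted threshold (limma adjusted p = 0.15 and 0.0565). H2-Eb1, a second beta chain, overlapped, with WT replicate 1 high, at 71.2, 9.65 and 16.8 against 46.4, 76.2 and 82.6 FPKM. The peptide-loading genes H2-DMb1 and H2-DMb2 followed at lower levels, up to 15.9 FPKM in WT and from 21.3 up in p53/Brca1-null. These 2 are close copies and their values may share reads. Ciita, the master switch of the class, reached 0.0211 FPKM in WT, against 1.23, 1.49 and 0.334 in p53/Brca1-null.

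Of the 9 class II genes tested, 5 had an unadjusted p under 0.05 on the higher side, where 10.1% of all genes did. Groups did not overlap for 6, all higher, against 12.7% of all genes on that side. The median log2 difference of the 9 was 1.60, or 1.18 above all genes, with 0.39 to 1.69 over the other settings. Among the 4 that were well measured on both sides, the median was 1.54. In 3 of these the groups did not overlap, all higher, against 8.96% of all genes well measured on both sides. MHC class I genes, which nearly all cells express, showed no such order. None of 15 had an unadjusted limma p under 0.05, and the median was 0.05, or -0.36 relative to all genes. B2m, the common light chain, stood at 1731, 2127 and 2337 against 2369, 2433 and 1864 FPKM. For H2-K1 the log2 difference was 0.34 with a 95% interval of -0.26 to 0.94, and for H2-D1 -0.17 with -0.62 to 0.29. The difference between the 2 classes was not tested.

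Class II promoters share an X-Y module, in which the Y box is bound by NF-Y. The upstream sequences of H2-Aa, the called member, and H2-Eb1, which overlapped, are shown with the Y box letters CTGATTGG in capitals.

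H2-Aa: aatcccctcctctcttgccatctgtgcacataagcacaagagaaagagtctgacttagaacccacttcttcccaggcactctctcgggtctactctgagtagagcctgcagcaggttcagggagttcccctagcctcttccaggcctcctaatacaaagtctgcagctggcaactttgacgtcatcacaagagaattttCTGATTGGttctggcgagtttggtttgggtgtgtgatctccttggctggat

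H2-Eb1: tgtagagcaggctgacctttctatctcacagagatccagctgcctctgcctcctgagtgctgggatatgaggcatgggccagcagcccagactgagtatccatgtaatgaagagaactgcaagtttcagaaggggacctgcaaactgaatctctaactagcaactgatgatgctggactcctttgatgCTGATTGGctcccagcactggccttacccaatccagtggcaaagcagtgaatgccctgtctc

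H2-Aa lies at chr17:34287824-34288073 on the minus strand and H2-Eb1 at chr17:34305617-34305866 on the plus strand of GRCm38.p6. The match begins 51 and 62 bases before the start sites. It is found in 3 of the 7 class II genes with an entry (H2-Aa, H2-Eb1 and H2-Oa) and in 4.1% of all promoters. H2-Aa and H2-Eb1 thus share these letters at a similar distance, although their values by library differ as given above. None of the motif matches shown in capitals overlapped a match to another of the 4 motifs searched.

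Chemokines split by member. Monocyte-attracting Ccl8 stood at 221, 20.1 and 523 FPKM on the WT side against 1195, 1347 and 1841 on the p53/Brca1-null side, and its neighbour Ccl7 at 2.4, 31.3 and 137 against 264, 824 and 1716, both without overlap (limma adjusted p = 0.137 and 0.0734). Ccl4, which attracts macrophages and T cells, stood at 5.54, 0.757 and 41.2 against 87.8, 182 and 414. On the other side lay Cxcl12, which holds immune and stem cells in place, at 112, 32 and 26 FPKM within WT against 0.162, 11.6 and 1.36 within p53/Brca1-null (limma adjusted p = 0.135). Cxcl14, made by epithelia, was ordered likewise at 44.9, 27.1 and 51.1 against 16.2, 5.95 and 18.9. Of 23 tested chemokine and cytokine genes none was called, while unadjusted 9 passed on the higher and 1 on the lower side. Their median log2 difference was 1.64, or 1.23 above all genes. Il6 and Csf3 were scattered in both groups, Il6 at 249.5, 0.0779 and 264 FPKM across WT against 20.1, 155 and 0 across p53/Brca1-null.

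Interferon-stimulated genes, which defend cells against viruses, held no call. Zbp1, a sensor of viral nucleic acid, stood at 0, 0.0597 and 0 FPKM on the WT side against 24, 9.97 and 29.7 on the p53/Brca1-null side. Rsad2 and Ifit1 were listed at 0 throughout WT and reached 8.06 and 13 FPKM in p53/Brca1-null, with Ifit1 at 0.0713 in replicate 3. Among the 3 members well measured on both sides, Ifi27 did not overlap, at 55.1, 65.3 and 53.9 against 137, 92.3 and 159, while Ifitm3 and Bst2 did. Of 16 tested genes 6 had an unadjusted p under 0.05, all with higher values, where 10.1% of all genes had one. The median was 1.55, or 1.14 above all genes. Ifi27l2a, a relative of Ifi27 outside the list, stood at 119, 37.5 and 112 FPKM within WT against 493, 462 and 341 within p53/Brca1-null.

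**Figure D4:**
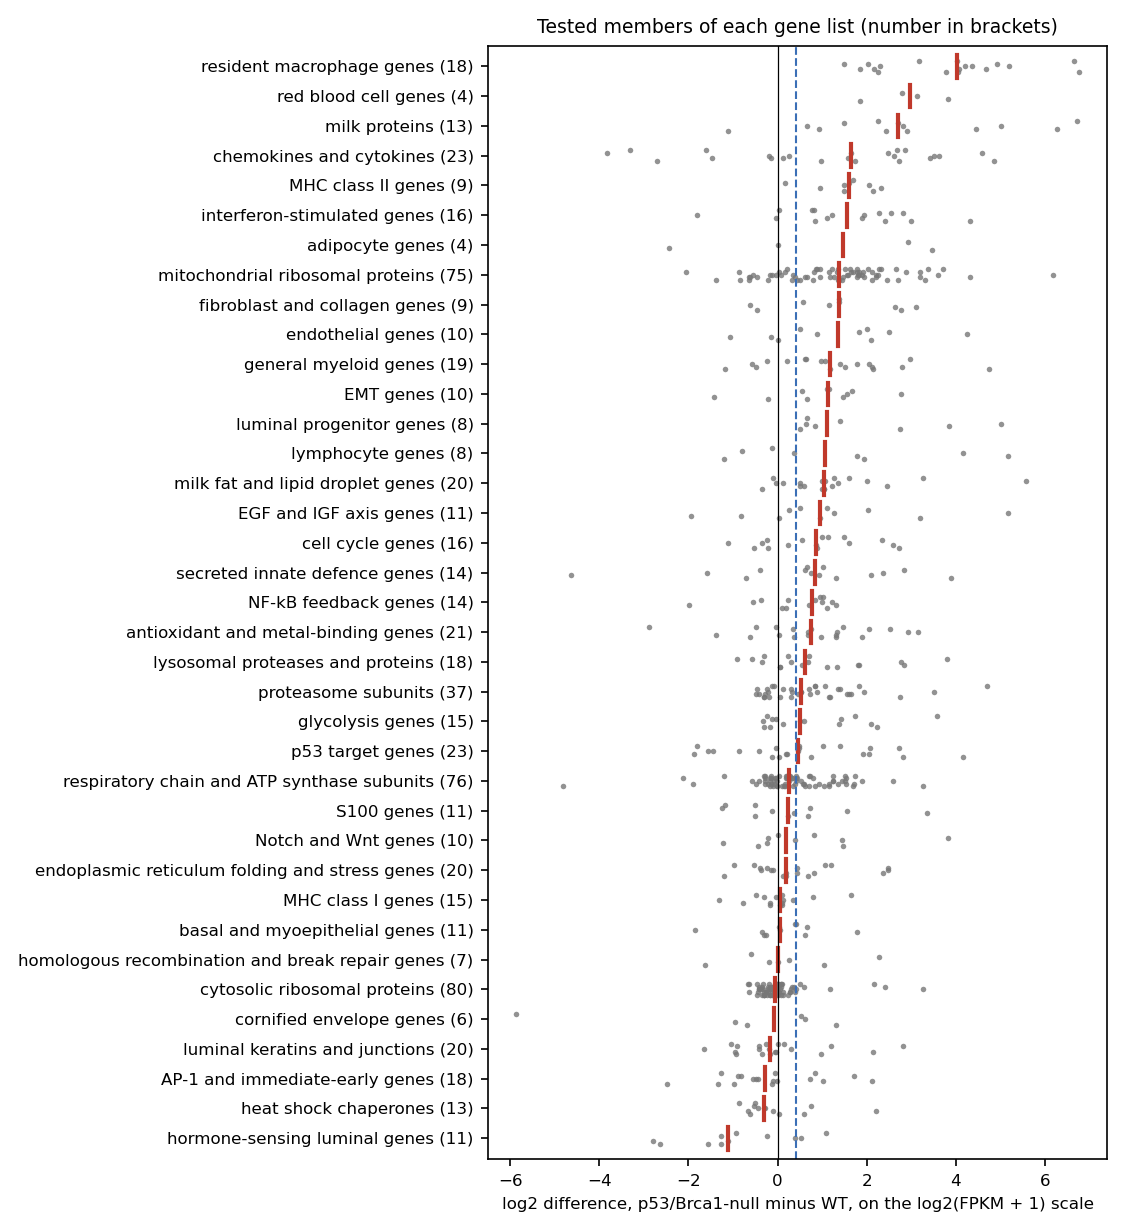
Log2 difference between p53/Brca1-null and WT (horizontal axis) of each tested gene (grey points) in 37 lists, with a red bar at the list's median. The black line marks no difference and the dashed blue line the median of all genes tested, 0.41. Resident macrophage genes have the highest median, 4.04, and hormone-sensing luminal genes the lowest, -1.10. The lists were chosen with earlier results of these data known.

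Milk genes are those that alveolar cells switch on in pregnancy under prolactin. Wfdc18, a whey acidic protein relative, stood at 17.8, 245 and 128 FPKM across WT against 2925, 2218 and 3080.3 across p53/Brca1-null, with a wide gap between groups (log2 difference 5.01 ± 0.92, limma adjusted p = 0.0667). It passed the adjusted threshold in 8 of 19 other settings. Glycam1, a mucin of milk, was listed at 0 in WT replicates 1 and 3 and at 0.0810 FPKM in replicate 2, and stood at 11.7, 260.1 and 376 in p53/Brca1-null. The caseins varied widely within each group and overlapped between them. Csn1s2a stood at 1.93, 20.1 and 129.6 FPKM on the WT side against 82.4, 4151 and 10777 on the p53/Brca1-null side, and Csn1s1 at 15.4, 159 and 58.7 against 101, 691 and 923. In p53/Brca1-null, replicate 1 was the low library for each of these caseins. Lalba, which completes lactose synthesis, was listed at 0 there, with 4.45 and 379 FPKM in the others and 126, 33.2 and 3.8 in WT. Of 13 tested milk genes none was called, 6 had an unadjusted p under 0.05 on the higher side, and 12 lay above the median of all genes. The median was 2.70, or 2.29 above all genes, with 1.23 to 2.97 over the other settings. Plin2, which coats milk fat droplets, stood at 100.2, 134 and 114 FPKM against 218, 373 and 538 without overlap. Plb1, a phospholipase, was called higher at 0.0851, 0.617 and 0 against 66.6, 46.9 and 58 (limma adjusted p = 0.0204). It lost its call without each p53/Brca1-null library in turn (0.119, 0.124 and 0.0979).

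Luminal progenitor genes showed a mixed picture. Wfdc18 is also on that list, and Cd14, a receptor for bacterial lipopolysaccharide that luminal progenitors and myeloid cells share, stood at 2.5, 32.6 and 129 FPKM within WT against 177, 459 and 560.1 within p53/Brca1-null (limma adjusted p = 0.0846). The alveolar factor Elf5 stood at 0.0988, 0.626 and 0 against 0, 3.31 and 6.75. Aldh1a3, an enzyme of retinoic acid synthesis, was high in 1 library, at 87.1, 7.17 and 1.44 FPKM in p53/Brca1-null. Kit, the stem cell factor receptor, was listed at 0 throughout WT and reached 0.411 FPKM in p53/Brca1-null. All 8 tested members lay above the median of all genes, 3 with an unadjusted p under 0.05.

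Hormone-sensing luminal genes had the lowest median of the 37 lists. Prlr, the prolactin receptor, stood at 363, 204 and 78.8 FPKM across WT against 27.8, 12.9 and 43.6 across p53/Brca1-null, a mean 7.66 times as high in WT, with no overlap (limma adjusted p = 0.0799). Areg, the growth factor by which estrogen-sensing cells signal to their neighbours, stood at 172, 281 and 181 against 93.2, 41.3 and 85. Wnt4, a relay of progesterone, stood at 38.6, 25.7 and 15.1 against 11.1, 4.35 and 0.0959, lowest in replicate 3. Pgr, the progesterone receptor, was at most 3.01 FPKM in WT and at most 0.0882 in p53/Brca1-null, and its groups did not overlap either. Esr1, the estrogen receptor, reached no more than 1.66 FPKM in any of the 6 libraries, and Cited1, a cofactor in such cells, overlapped at 76.2, 394 and 287 against 234, 71.8 and 51. No gene of 11 tested was called and 3 had an unadjusted p under 0.05 on the lower side, where 2.09% of all genes did. The median was -1.10, or -1.52 relative to all genes, and stayed below all genes in the 19 other settings (-2.03 to -0.62). The summed level ran from 626 to 1096 FPKM in WT and from 256 to 412 in p53/Brca1-null.

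General luminal and basal markers mostly overlapped. Krt8 stood at 1611, 2442 and 1605 FPKM on the WT side against 1858, 1208 and 1956 on the p53/Brca1-null side, and Krt18 at 3400.04, 3755 and 2621 against 2783, 2497 and 3269. The epithelial adhesion gene Epcam stood at 274, 507 and 196 against 366, 191 and 229. Of 20 luminal keratin and junction genes tested none was called, and 2 had an unadjusted p under 0.05 on the higher and 1 on the lower side. Their median lay -0.60 from all genes. Groups did not overlap for 2 higher and 2 lower members, against 12.7% and 3.83% of all genes. On the lower side Cd9, a tetraspanin, stood at 931, 989 and 797 against 608, 359.6 and 466 FPKM (limma adjusted p = 0.225). On the higher side Muc1 stood at 0.0465, 0.572 and 0.0182 against 9.72, 1.26 and 5.04. Cldn1 stood at 4.88, 0.0226 and 0.0122 against 28.7, 7.12 and 7.87. Of the basal genes, Krt14 stood at 121, 168 and 100.4 against 113, 139.9 and 291, and smooth muscle actin, Acta2, at 29.2, 159 and 131 against 106, 58.9 and 51.8. None of 11 basal genes tested had an unadjusted limma p under 0.05, with a median of 0.05, or -0.37 relative to all genes, with the sign turned in 2 of 19 settings.

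**Figure D5:**
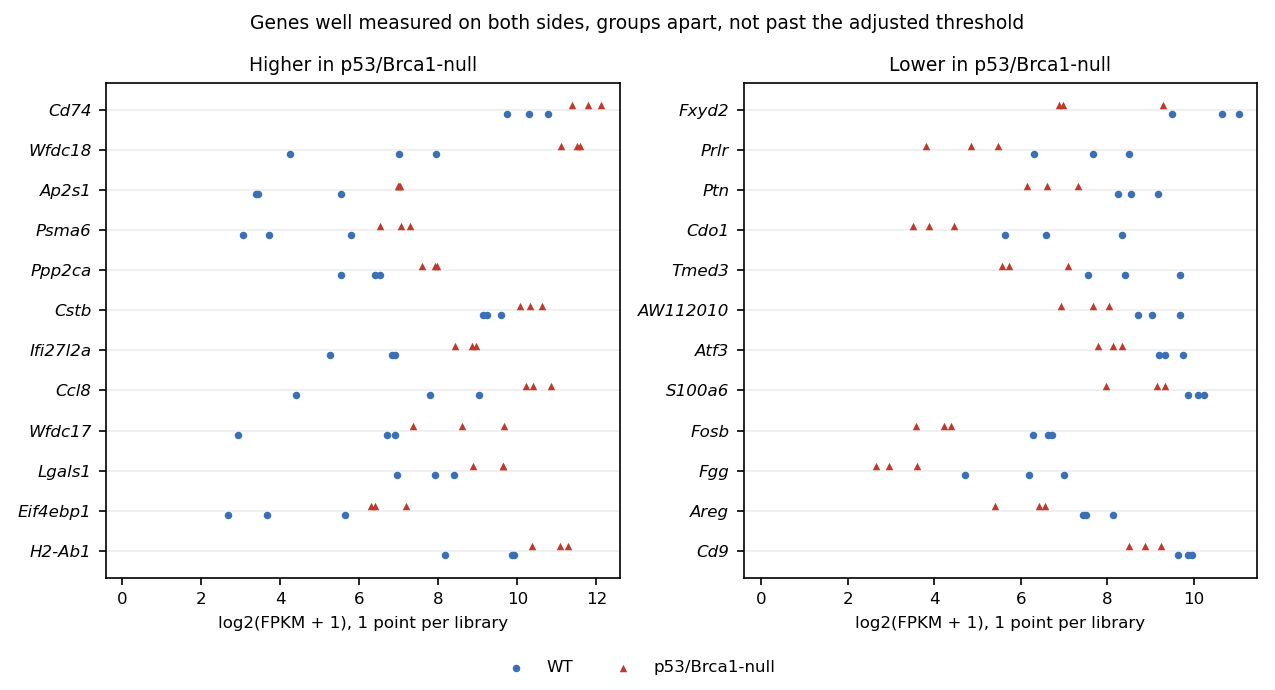
Levels, as log2(FPKM + 1), of the 12 genes higher (left) and the 12 lower (right) in p53/Brca1-null with the smallest unadjusted p among genes well measured on both sides that were not called and whose groups did not overlap. Blue circles are WT libraries and red triangles p53/Brca1-null libraries. The groups stand apart because the choice required it, and WT replicates spread widely for genes such as Wfdc17 and Eif4ebp1.

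Immediate-early genes are switched on within minutes by growth factors, stress or tissue handling, and many encode parts of AP-1, the Fos and Jun dimer. Fosb stood at 97.6, 104 and 77.1 FPKM within WT against 11, 17.7 and 19.9 within p53/Brca1-null, and Atf3 at 641, 857 and 590.3 against 221, 281 and 326, both with the groups apart (limma adjusted p = 0.167 and 0.161). Jun stood at 205, 221 and 211 against 84.1, 73.3 and 201 and Ier2 at 89, 149 and 119 against 60.3, 80.7 and 59, also without overlap. Fos overlapped, at 127, 413 and 289 against 60.4, 93.5 and 183. Fosl1, a late Fos relative, went the other way, at 2.97, 42.4 and 6.51 FPKM across WT against 39.5, 66.6 and 37.9 across p53/Brca1-null, with WT replicate 2 within the p53/Brca1-null range. Junb, Klf6 and Dusp1 had log2 differences between -0.11 and -0.01. All 18 genes were tested and none called. Of the 14 well measured on both sides, 13 had lower fitted levels in p53/Brca1-null, as did 713 of the 1506 genes of that class. Groups did not overlap for 4, all lower, against 7.1% of that class on the lower side. The median of the 14 was -0.51, against 0.05 for all genes of that class. Over all 18 the median was -0.28, and relative to all genes it lay between -0.97 and -0.27 in the other settings. No measure of handling time is in the labels, and its part in these values was not tested.

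Sprr1a, a small proline-rich protein of the cornified envelope that injured epithelia also make, fell in p53/Brca1-null. It stood at 111, 153 and 106 FPKM on the WT side against 0, 5.05 and 0.535 on the p53/Brca1-null side (log2 difference -5.87 ± 0.87, limma adjusted p = 0.0073) and stayed called in all 19 other settings. Its p53-null libraries lay between, at 25.9, 61.4 and 52.1. Of the 6 members of its list that were tested, no other was called. Sprr1b, Sprr2d, Sprr2h, Sprr3 and Ivl were listed at 0 in all 6 libraries, and Dmkn stood at 8.65, 112 and 40.7 against 260.5, 41.2 and 63.3 FPKM. The sequence upstream of Sprr1a is shown because it was the most stable call on the lower side, with the AP-1 letters TGANTCA in capitals.

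Sprr1a: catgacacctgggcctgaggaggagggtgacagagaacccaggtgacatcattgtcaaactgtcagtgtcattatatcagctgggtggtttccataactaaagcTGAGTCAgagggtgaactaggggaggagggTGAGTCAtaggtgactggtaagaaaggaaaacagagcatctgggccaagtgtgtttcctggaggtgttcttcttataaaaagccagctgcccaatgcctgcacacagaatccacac

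This stretch is chr3:92485882-92486131 on the minus strand, and the matches begin 146 and 116 bases before the start site. Of all promoters 7.81% hold at least 1 match, as do 11 of the 16 cornified envelope genes with an entry. These letters are not particular to Sprr1a. The Cd209f and Cd209g stretches above, of genes called higher, hold the AP-1 letters too, left in lower case 83 and 97 bases before their starts. Likewise TATAAA stands in lower case 30 bases before the start of Retnla and 43 before that of Sprr1a. A match is a description of letters and no evidence of binding in these cells.

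The other called genes on the lower side were Gpx3 and Ang3. Gpx3, a secreted glutathione peroxidase, stood at 1019, 2911 and 812 FPKM within WT against 85.4, 134 and 506 within p53/Brca1-null (limma adjusted p = 0.0446). It was called in 6 of 19 other settings, and of the libraries left out 1 at a time only WT replicate 3 and p53/Brca1-null replicate 3 kept the call, while the others gave adjusted p up to 0.217. Ang3, a ribonuclease of the angiogenin family, was at 0 in every p53/Brca1-null library and stood at 73.3, 10.7 and 17 FPKM in WT (limma adjusted p = 0.0423). It was called in 6 of 19 other settings and lost its call without WT replicate 1 (0.0531), p53-null replicates 2 (0.0863) and 3 (0.0808) and p53/Brca1-null replicates 1 (0.156), 2 (0.217) and 3 (0.134). Its angiogenin relatives are near-identical, so its reads may be shared. Sod1, the copper-zinc superoxide dismutase, was not called but did not overlap, at 178, 209.9 and 268 against 98.6, 61.4 and 89.6 FPKM. The thioredoxin-linked Prdx3 and the glutathione synthesis gene Gclm went the other way, Prdx3 at 0.421, 3.77 and 0 against 17.1, 16.9 and 14 and Gclm at 1.45, 16.6 and 0.794 against 21.6, 36.8 and 39.8. Prdx1 and the metallothionein Mt1 overlapped. Of 21 antioxidant genes tested, 5 had an unadjusted p under 0.05 on the higher side and 2 on the lower, and their median lay 0.34 above all genes.

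Among uncalled genes well measured on both sides, the following were chosen because every p53/Brca1-null library lay below every WT library. Fxyd2, a regulator of the sodium pump, stood at 724, 2108 and 1607 FPKM across WT against 117, 126 and 625 across p53/Brca1-null (limma adjusted p = 0.0565). Ptn, the growth factor pleiotrophin, stood at 301, 579 and 371 against 70.2, 96.2 and 159.8. Cdo1, which oxidizes cysteine, stood at 321, 94.9 and 48.8 against 20.9, 13.7 and 10.4. Cdo1 spread most within WT. Tmed3, a cargo receptor of the early secretory path, stood at 339, 823 and 188 against 52.4, 46.1 and 136. Fgg, a fibrinogen chain, stood at 128, 72.6 and 25.3 against 5.34, 6.75 and 11.1. The calcium-binding S100a6 stood at 936, 1204 and 1103 against 566, 252 and 641, while its relatives S100a10 and S100a11 overlapped.

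On the higher side of the same class, also chosen for groups that did not overlap, lay the following genes, none of them called. Cstb, an inhibitor of cathepsins, stood at 559, 599.7 and 771 FPKM on the WT side against 1063, 1276 and 1589 on the p53/Brca1-null side, a mean 2.04 times as high with little spread (log2 difference 1.02 ± 0.28, limma adjusted p = 0.131). Ap2s1, a subunit of the clathrin adaptor, stood at 9.85, 9.4 and 45.8 against 128, 129.5 and 124. Ppp2ca, the catalytic subunit of protein phosphatase PP2A, stood at 45.1, 83.4 and 90.8 against 250.3, 241 and 189.9. For Ap2s1 and Ppp2ca the p53-null libraries also stood above all WT libraries, at 105, 57.1 and 106 and 189, 232 and 229.9. Eif4ebp1, a brake on translation, stood at 5.44, 11.7 and 48.7 against 145, 78.2 and 82.8, and the galectin Lgals1 at 339, 124 and 242 against 792, 795 and 467. Psma6, a ring subunit of the proteasome, stood at 12.2, 54.5 and 7.4 against 154, 131 and 91.1. The p53-null libraries of Eif4ebp1 and Psma6 likewise stood above all WT libraries, at 98.9, 58.9 and 95.4 and at 131, 110 and 116. Those of Cstb and Lgals1 overlapped WT. Of 37 proteasome genes tested, 4 had an unadjusted p under 0.05, all with higher values, where 10.1% of all genes had one. The median of the 37 was 0.53, or 0.12 above all genes, with the sign turned in 3 of 19 settings.

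Among further called genes near 0 in WT, 8 are taken first. Psmd10 (gankyrin), an assembly chaperone of the proteasome that also binds RB, stood at 0.0405, 0 and 0 FPKM within WT against 21.3, 33.4 and 22.7 within p53/Brca1-null (limma adjusted p = 0.0423). Cks1b, which guides the degradation of cell cycle inhibitors, had 0.0861, 1.59 and 0 against 55.9, 43.1 and 44.3 FPKM (limma adjusted p = 0.0333). Igfbp4, which binds insulin-like growth factors, had 0.0255, 0.0553 and 2.71 against 49.8, 63.2 and 56.3 FPKM (limma adjusted p = 0.0384). All 3 had little spread in p53/Brca1-null. Pno1, needed for the small ribosomal subunit, stood at 0.349, 3.74 and 0.136 against 57.3, 45.9 and 53.2. Stoml2, a mitochondrial membrane protein, stood at 0, 0.0511 and 0.0552 against 18.7, 42 and 24.8. Lsp1, an actin-binding protein of leukocytes, was listed at 0 throughout WT and reached 24.2, 15.8 and 39.5. Ccdc101, a subunit of histone acetyltransferase complexes, stood at 0.0494, 0.0357 and 0.0386 against 23.3, 21.3 and 26.7. Rab13, a GTPase of tight junction traffic, stood at 0.0548, 0 and 0 against 39.6, 20.01 and 79.7. Leaving out p53/Brca1-null replicate 2 removed these 8 calls, with limma adjusted p from 0.121 to 0.217. In Stoml2, Lsp1 and Pno1 the p53-null libraries overlapped those of p53/Brca1-null, while in the other 5 they lay below them. They stood at 30.2, 20.1 and 19.6 FPKM for Stoml2, 14.8, 26.4 and 26 for Lsp1 and 66.3, 29.3 and 26.5 for Pno1, but at 1.94, 7.65 and 1.73 for Psmd10. Cmtm3, Qdpr and 2210013O21Rik were also called and near 0 in WT. Cmtm3 stood at 0.134, 1.82 and 0 FPKM within WT against 44.6, 81.5 and 59.6 within p53/Brca1-null. Qdpr had 0, 0.0289 and 0 against 44.5, 14.3 and 46.3, and 2210013O21Rik 0.948, 0.0528 and 0 against 30.1, 36.8 and 23.5. These calls too were lost without p53/Brca1-null replicate 2 (limma adjusted p = 0.217, 0.123 and 0.217). Of these, only Cmtm3 had all p53-null libraries below those of p53/Brca1-null.

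Of the 21 genes called higher, 15 had a WT mean under 1 FPKM, and 18 had all p53-null libraries above all WT libraries. In 15 all p53/Brca1-null libraries lay above all p53-null libraries. In 19 the p53-null mean lay between the WT and the p53/Brca1-null means, as it did for all 3 called lower. For Ang3 this rested on a trace of 0.00118 FPKM in p53-null replicate 1, with 0 in p53-null replicates 2 and 3. The genes were called through these same WT and p53/Brca1-null libraries, so such positions of p53-null follow in part from that choice. Shares over all genes are not given here. Against p53-null itself, in a contrast that shares the p53/Brca1-null libraries, limma called none of the 9503 genes (0%), with 450 at an unadjusted p under 0.05 (4.74%). Among genes well measured in p53/Brca1-null alone, 37 were listed at 0 in all WT libraries, and 8 of those were at 5 FPKM or more in all p53-null libraries, while none was at 0 in all of them.

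Mitochondrial ribosomal genes are needed to translate the mitochondrial genome. Mrpl42 was listed at 0 throughout WT and reached 102, 63.3 and 58.3 FPKM in p53/Brca1-null, and stayed called in all 19 other settings. Mrpl2 stood at 0.0588, 0 and 0.046 against 15.9, 28 and 17.4 and Mrps22 at 0 throughout WT but 13.7, 15.1 and 8.6 in p53/Brca1-null, neither called (limma adjusted p = 0.0565 and 0.0846). The abundant members Mrpl52 and Mrpl33 overlapped, Mrpl52 at 164, 332 and 551 against 375, 246 and 375. Over 75 tested genes the median was 1.38, or 0.97 above all genes, with 16 at an unadjusted p under 0.05 on the higher side. Of the 75, 36 were well measured in p53/Brca1-null alone, a class chosen in part by the difference itself, so the median over the 75 is a description. Among the 14 well measured on both sides it was 0.02, against 0.05 for that class. Of 80 cytosolic ribosomal genes 76 were well measured on both sides, with a median log2 difference of -0.07. Over all 80 the median lay -0.48 from all genes (-0.75 to -0.05 over the other settings), and 7 members lay above the median of all genes. Among the 76, 2 were higher and 8 lower without overlap, where 8.96% and 7.1% of all genes well measured on both sides were. An example of the latter is Rpl18 at 1429, 1327 and 912 against 830.5, 631 and 849.8 FPKM. Respiratory chain genes had a median of 0.27 over 76 genes, or -0.15 relative to all genes, with the sign turned in 4 of 19 settings. Among the 65 well measured on both sides the median was 0.21, against 0.05 for that class. Over the 76, groups did not overlap for 10 higher and 3 lower members, against 12.7% and 3.83% of all genes tested. The lowest member, Cox6b2, a testis-type subunit of cytochrome oxidase, stood at 372, 36.2 and 55.6 against 0, 0 and 34.7.

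Genes that p53 activates had a median near that of all genes. Gdf15, a stress cytokine, stood at 0.702, 8.13 and 26.3 FPKM across WT against 105, 95.7 and 239 across p53/Brca1-null. Mdm2, which marks p53 for degradation, stood at 3.83, 40.05 and 17.1 against 79.1, 74.8 and 41.1, and the death gene Bax at 10.01, 97.1 and 131 against 171, 177 and 252, all with groups apart and none called (limma adjusted p = 0.0676, 0.331 and 0.344). Pmaip1 (NOXA) stood at 0.155, 1.96 and 3.22 against 22.1, 12.6 and 15.3. Rrm2b, a p53-driven subunit of ribonucleotide reductase, was lower at 1.41, 3.88 and 2.99 against 0.142, 0.986 and 0.00805. Cdkn1a (p21) overlapped, at 45.1, 116 and 44 against 123, 129 and 70.3. Of 23 tested targets 6 had an unadjusted p under 0.05 on the higher side and 1 on the lower. Their median of 0.46 lay 0.05 above all genes, with the sign turned in 5 of 19 settings. Of 25 homologous recombination genes 7 could be tested, and Palb2, Bard1 and Chek2 were, like Brca1, listed at 0 in all 6 libraries. Rad50, a break-sensing partner, was at 0 throughout WT but at 1.68, 2.19 and 12.5 FPKM in p53/Brca1-null.

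Cell cycle genes were thinly measured. Of the replication helicase genes, Mcm5 and Mcm6 were listed at 0 throughout WT and stood in p53/Brca1-null at 22.2, 3.91 and 1.6 and at 14.7, 12.5 and 0.0129 FPKM, and Mcm3 stood at 0.0177, 0.0384 and 0 against 9.32, 12 and 0.0518. Replicate 3 of p53/Brca1-null was the lowest for all 3. Pcna, the sliding clamp, was abundant and overlapped, at 152, 58.3 and 41.9 against 39.1, 97.2 and 59.997, and Mki67 reached no more than 2.43 FPKM in any of the 6 libraries. Of 16 tested genes 3 had an unadjusted p under 0.05, with a median 0.46 above all genes that turned below them, to -0.27, with the filter of 5 FPKM.

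Of 13 heat shock chaperone genes tested none was called, and 1 had an unadjusted p under 0.05 in each direction. Their median log2 difference was -0.31, or -0.73 relative to all genes (-1.01 to -0.01 over the other settings). Among the 12 well measured on both sides it was -0.38, against 0.05 for that class. Hspa8, the constitutive HSC70, stood at 630.5, 794 and 664 FPKM on the WT side against 1071, 1285 and 1146 on the p53/Brca1-null side, with groups apart (limma adjusted p = 0.368), whereas the small heat shock gene Hspb1 stood at 1588, 2019 and 1215 against 1303, 541 and 907 and overlapped. Hspe1, a mitochondrial chaperonin, had lower values without overlap, at 822, 1136 and 1126 against 779, 438 and 769 (limma adjusted p = 0.538). Hsp90b1, a chaperone of the endoplasmic reticulum, stood at 332, 245 and 185 against 146, 105 and 129. Hspa5, a further chaperone there, overlapped. Of 18 lysosomal genes tested 3 had an unadjusted p under 0.05, all with higher values, and their median relative to all genes turned sign in 3 of 19 settings. Ctsc, an activator of granule proteases, stood at 0.627, 3.21 and 20.2 against 60.8, 77.7 and 79 and the protease Lgmn at 1.9, 28.3 and 12.5 against 55.7, 62.4 and 115, while the abundant Cd63 and Ctsd overlapped. The secreted protease inhibitor Slpi was lower without overlap, at 239.9, 432 and 668 against 101, 186 and 136 FPKM. Wnt5b stood at 0.0496, 0.628 and 0.794 against 24.4, 9.9998 and 30.01, and the Notch target Hes1 at 7.99, 94.9 and 54.9 against 19.2, 12.5 and 13.2.

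Markers of other cell types were present in both groups, with wide spreads. For red blood cells, the hemoglobin gene Hba-a1 stood at 14.6, 67 and 19.6 FPKM within WT against 199.6, 406 and 11.9 within p53/Brca1-null, and the list summed from 24.3 to 149 FPKM in WT and from 56.9 to 945 in p53/Brca1-null. The hemoglobin genes of a chain are close copies and may share reads. For fibroblasts, collagen Col1a1 stood at 0, 0.0191 and 0.00824 against 1.18, 21.8 and 5.53 and Col3a1 at 3.35, 11.7 and 19.8 against 8.64, 102 and 11.9, both highest in p53/Brca1-null replicate 2. Without that library the fibroblast median lay -0.35 from all genes. The plasma cell gene Igj stood at 0, 0.0362 and 1.58 against 6.4, 612 and 26.4, again highest in replicate 2, and Nkg7 of cytotoxic lymphocytes at 0 throughout WT but 5.68, 20.2 and 39.2 in p53/Brca1-null. Endothelial Egfl7 stood at 0, 0.215 and 0.232 against 15.5, 40.9 and 13.8, but Kdr was listed at 0 in all 6 libraries and Cldn5 stood at 138, 0 and 56.6 against 29.4, 27 and 0. The endothelial median turned to -0.04 relative to all genes without WT replicate 2. Among adipocyte genes Plin1 and Lep were at 0 in all 6, and Fabp4 overlapped, at 1091, 119.5 and 1566 against 289.7, 1365 and 528. Cfd overlapped too, at 1.78, 22.9 and 57.2 against 0, 23.8 and 0. Car3 was higher without overlap, at 9.49, 2.26 and 0 against 20.9, 61.8 and 33.3 (limma adjusted p = 0.137). So was Pparg, at 0.333, 4.63 and 0.332 against 22.2, 8.05 and 19.9 (limma adjusted p = 0.337). Counts with an unadjusted p under 0.05 on the higher side were 3 of 4 red blood cell, 3 of 9 fibroblast, 2 of 8 lymphocyte, 1 of 10 endothelial and 2 of 4 adipocyte genes. Summed levels of these lists overlapped between the groups, and their part in the results was not tested.

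Most of the abundant transcripts named here overlapped between the groups. Tmsb4x, which binds actin monomers, stood at 10764, 8194 and 11590.3 FPKM across WT against 11173, 12792 and 15448 across p53/Brca1-null, and the ferritin heavy chain Fth1 at 5516, 2729 and 6448 against 4989, 10957 and 10922. Ribosomal Rpl35 and Rpl41 had log2 differences of -0.02 and -0.07, with 95% intervals of -0.53 to 0.49 and -0.66 to 0.51. Apoe, a lipid carrier that macrophages make in quantity, stood at 3052, 2160.2 and 3829 against 1084, 3475 and 4802, with the lowest library in p53/Brca1-null. Mir6236 had groups apart, at 17202, 7139 and 6244 FPKM on the WT side against 6085, 3719 and 1742 on the p53/Brca1-null side (limma adjusted p = 0.283). Values of such very short loci depend strongly on the length used for scaling.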

How the data were processed

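RNA came from sorted cells extracted with Trizol, and low-input cDNA was made with a SMARTer v4 kit, per the labels' protocols. The authors deposited 1 table of FPKM values, a unit inferred from the values and the table's labelling. Its genome build is mm9 per the submitters' processing notes, while no aligner, quantifier or annotation is given in the sources used here. Without counts, no count model was used. The 92 spike-in features were dropped, and 27 gene names that read as dates were kept as given.

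Levels were set to log2(FPKM + 1). Genes that reached 1 FPKM in 3 or more of 9 libraries were tested with limma 3.58.1 in R 4.3.3, with trend and robust moderation, 6 residual degrees of freedom and Benjamini-Hochberg adjustment at 0.05, after a check on simulated data. Members and lists were chosen with earlier results of these data known. Named genes were the called genes, the 12 higher and 12 lower genes with the smallest unadjusted p among uncalled genes well measured on both sides whose groups did not overlap, up to 4 members per list with the smallest unadjusted p and up to 3 with the highest mean, and the 12 most abundant genes. Other list members in the text, such as Clec10a, Mgl2, C1qa, Jun, Ier2, Lalba and Rrm2b, were chosen after their values were seen. Alternatives were a replicate block, the 6 compared libraries alone, other moderation, scaling, filters, pseudocounts, a covariate and leaving out each library. Subtracting the shared part of WT replicate 1 was added after seeing the data. Depth in reads is unknown.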

Additional observations from a re-analysis of the deposited data

How the results depend on the processing

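The count of 24 called genes, 21 higher and 3 lower, moved with most settings, and nearly all calls were well measured. It was 9 (8 higher, 1 lower) with only the 6 libraries compared, 78 (72 and 6) without trend or robust moderation, 54 (45 and 9) with quantile normalization, 56 (50 and 6; 54 of them well measured) with a pseudocount of 0.1 and 11 (10 and 1) with a pseudocount of 5. It was 4 (3 and 1) when the count of detected genes entered as covariate and 6 (5 and 1) with the shared part of WT replicate 1 subtracted. Without a filter it was 16 (15 and 1) and with a filter of 5 FPKM 33 (28 and 5). With the replicate block it was 14 (11 and 3). Deviations of same-numbered libraries from their group means correlated between -0.0388 and -0.0019. For differently numbered libraries the values ran from -0.0118 to 0.0339. These values show no sign that replicate numbers pair the samples, but with 3 libraries per genotype they cannot exclude it. Leaving out 1 library at a time gave 3 to 74 calls, of which 2 to 66 were higher and 1 to 8 lower, with 3 to 72 well measured. These changes in count have causes that were not tested. Mrpl42 and Sprr1a stayed called in all 19 settings and Retnla in 18, and no called gene changed direction in any. Against p53-null, limma called none of the 24 in any of the 18 settings that keep those libraries. Depth in reads is unknown, so a value of 0 may be missed at the depth of its library. The replicates' origin is not given.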

Other observations

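Of the 11 tested genes of the EGF and IGF axis, none was well measured on both sides. Hbegf, a ligand of the EGF receptor, stood at 2.18, 24.3 and 14.1 FPKM across WT against 29.7, 58.2 and 43.9 across p53/Brca1-null, without overlap (limma adjusted p = 0.383). Igfbp7 stood at 1.35, 4.47 and 77.6 against 49.4, 299 and 49.8 and overlapped (limma adjusted p = 0.278), as did Egfr. Igf1, a member of the resident macrophage list chosen after its values were seen, stood at 0, 0 and 0.737 against 2.88, 8.24 and 3.34. Hbegf, Igfbp4 and Igfbp7 were the 3 of 11 tested genes of the EGF and IGF axis with an unadjusted p under 0.05. All had higher values, where 10.1% of all genes had such a p. The median of the 11 lay 0.54 above all genes.

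Of 15 glycolysis genes tested none was called by limma and 4 had an unadjusted p under 0.05, all with higher values. Gapdh stood at 263, 282 and 297 FPKM against 374, 295 and 184, Aldoa at 248, 325 and 162 against 169, 218 and 188 and Ldha at 298, 229.9 and 286 against 257, 196 and 198, each with overlapping groups. Tpi1 was apart, at 4.79, 63.2 and 73.7 against 138, 79.7 and 90.8. Of the 8 glycolysis genes well measured on both sides 3 had higher fitted levels and 2 had higher groups that did not overlap, with a median log2 difference of -0.10. Over the 15 the median lay 0.10 above all genes, with the sign turned in 4 of 19 settings. Another list held inhibitors, subunits and targets of NF-kB, an inflammatory transcription factor. Nfkbia, an inhibitor, stood at 54.5, 369 and 409 against 277, 426 and 309, and limma found an unadjusted p under 0.05 for none of the 14 genes tested from this list and called none. Among genes of epithelial-mesenchymal transition, the intermediate filament gene Vim stood at 164, 2.002 and 99.6 against 159.9, 292 and 337, overlapping through WT replicate 1, and the factor Twist1 was listed at 0 throughout WT and reached 8.19, 1.32 and 0 in p53/Brca1-null. In that list 1 of 10 tested genes reached an unadjusted p under 0.05 on the higher side, as did 10.1% of all genes. The list's median lay 0.72 above all genes.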
